A study of Oryza sativa with 20 samples.

Results

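The genes described here are the calcium-dependent protein kinases (CPK), the kinases that bind calcineurin B-like proteins (CIPK) and the calcineurin B-like proteins (CBL) of rice, Oryza sativa, followed through pollination. They were chosen by name: every probe set (the group of short probes that reports 1 transcript) with a single annotated gene whose symbol or synonym is CPK, CDPK, CIPK or CBL and a number, with the prefix Os optional. That gave 65 probe sets for 51 genes, of 17905 genes with such a probe set on the array, and each gene is represented by its brightest probe set. The 51 are 20 CPK, 24 CIPK and 7 CBL genes. The naming table lists 63 genes with such names, and the other 12 are not analysed here.

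Transcript levels were measured on 20 Affymetrix rice arrays, each with 500 ng of total RNA from field-grown flowers. The groups are stigmas 5 min after pollination (n = 2) and stigmas of unpollinated flowers (n = 3), ovaries 5 min after pollination (n = 3) and unpollinated ovaries (n = 3), and whole pistils collected 15 to 25 min (n = 3), 40 to 50 min (n = 3) or 5 to 7 h (n = 3) after pollination. The labels name the pistil stages pollen tube growth, fertilization and zygote formation, and state that pollinated samples contain the pollen grains. The unpollinated tissues were collected apart, so no unpollinated whole pistil serves as a reference for the pistils. The labels call replicates biological and do not name separate plants or days. The p-values therefore cover no more than the spread among these arrays, which may be technical in part.

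A CPK carries a kinase domain and a calcium-binding, calmodulin-like domain in 1 protein, so it reads calcium by itself. A CBL binds calcium through EF hands but has no enzyme activity, and acts by binding the NAF motif of a CIPK, which releases that kinase from self-inhibition. In Arabidopsis, CPK17 and CPK34 are needed for normal pollen tube growth, which runs on a calcium gradient at the tip, and the CBL4-CIPK24 pair (SOS3 and SOS2) and the CBL1-CIPK23 pair act on the sodium exporter SOS1 and on the potassium channel AKT1.

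Intensities are relative, scaled so that the 75th percentile equals 1 on each array, and the medians of the arrays lay between 0.195 and 0.377. The small number of arrays sets the precision. A floor of 0.128, the 20th percentile of all values, replaced lower values before the log2 step, fold changes are ratios of geometric means, and errors on log2 changes are standard errors. Among the genes, 35 lay above the array median on all 20 arrays, 14 on fewer but at least 2, and CPK6 and CPK9 failed that filter of 2 arrays. CPK6 read 0.387 and 0.302 in 5-min stigmas and 0.207, 0.213 and 0.171 in unpollinated stigmas, CPK9 stayed between 0.0950 and 0.252 on all arrays, and neither was tested. A difference was called where limma gave a Benjamini-Hochberg adjusted p under 0.05 over all 35470 tested probe sets. The probe sets of CPK5, CPK12, CPK18, CIPK2, CIPK11, CIPK16 and CBL9 carry suffixes that mark possible cross-hybridisation. Levels of different genes cannot be compared, since probes differ in brightness. In whole tissue, more cells with a transcript and more transcript per cell cannot be told apart.

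The tissues were checked by marker genes. MADS13, an ovule identity gene, read 0.972 and 3.66 in 5-min stigmas and 13.9, 13.1 and 16.3 in 5-min ovaries, and 2.11, 1.62 and 1.13 in unpollinated stigmas and 16.2, 18.9 and 18.9 in unpollinated ovaries. Replicate 2 of the 5-min stigma stood above its partner there and for MADS29, an ovule and seed gene, with 1.27 against 0.134. Both pollen markers found, the beta-expansins EXPB9 and EXPB10, were measured on these arrays, and none of the stigma and style markers sought was matched to a probe set. The summed level of both pollen markers, most of it from EXPB9, ran from 63.5 to 67.9 in 5-min stigmas and 2.80 to 4.93 in unpollinated stigmas. It ran from 8.40 to 19.8 in 5-min ovaries and 0.264 to 0.671 in unpollinated ovaries, and no pollen marker lay at the floor on all arrays of a group. Of the 2 markers, 2 were called higher in 5-min stigmas and 1 in 5-min ovaries, where 8.61% and 3.88% of all probe sets were. Against both unpollinated tissues 0 of the 2 were called in the pistils at any time, where 6%, 3.97% and 16% of all probe sets were. The 4 stamen and lodicule genes summed to 73.1 to 100.7 in 5-min stigmas and 125.4 to 135.5 in unpollinated stigmas. Of the 7 carpel and ovule genes, 1 was higher and 2 lower in 5-min than in unpollinated stigmas. Between unpollinated stigmas and ovaries 2 of the 7 were higher and 2 lower in the stigma, with a median log2 difference of 0.08. Over all probe sets 19.7% were higher and 13.1% lower there. At 5 min 0 of the 7 were higher and 2 lower in the stigma. MADS13 is 1 of these 7, which as a set did not separate the unpollinated tissues.

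Genes of the kinase families were called in both tissues within 5 min of pollination. Of the 49 tested genes, 15 were higher and 7 lower in 5-min than in unpollinated stigmas, where 8.61% of all tested probe sets were higher and 13.4% lower (22% called). In 5-min against unpollinated ovaries 11 were higher and 0 lower, where 3.88% of all were higher and 2.02% lower (5.9% called). The median log2 change of the 49 was 0.13 in the stigma and 0.35 in the ovary, against -0.02 and -0.06 over all tested probe sets. By family, 6 of 18 CPK, 8 of 24 CIPK and 1 of 7 CBL genes were higher in 5-min stigmas, and 5 CPK, 6 CIPK and 0 CBL genes were higher in 5-min ovaries. The 7 lower in the stigma were 5 CPK and 2 CIPK genes. The genes higher in both tissues numbered 7: CPK2, CPK21, CPK22, CPK29, CIPK6, CIPK23 and CIPK30, which is 46.7% of the 15 and 63.6% of the 11. CIPK23 stands there by 1 of 2 probe sets that disagree, and without it 6 genes were shared, 42.9% of 14 and 60% of 10. No gene was called in opposite directions. Neither shared rises nor opposite calls were counted over all probe sets, so these shares have no background to be read against.

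**Figure D1:**
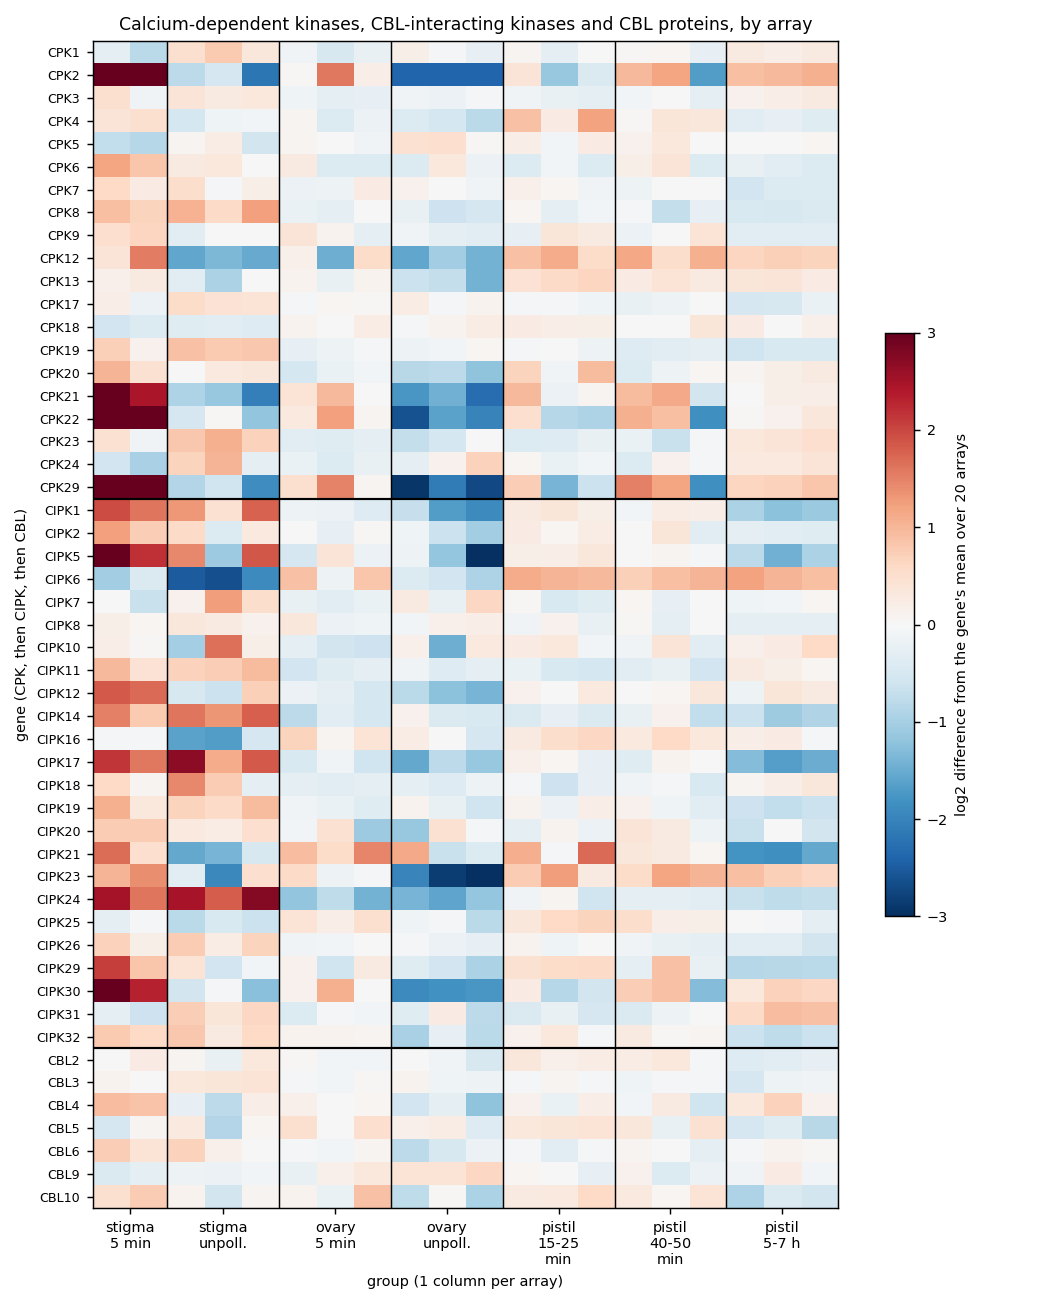
Heat map of the log2 difference of each of the 51 genes from its own mean over the 20 arrays, with 1 row per gene (CPK, then CIPK, then CBL) and 1 column per array, ordered by group; the colours end at 3 in either direction. The rows of CPK2, CPK21, CPK22, CPK29 and CIPK30 are darkest red in the 5-min stigma, and most CBL rows are pale.

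Among the CPK genes, CPK29, CPK2, CPK21 and CPK22 rose most in the pollinated stigma, between 15.6 and 26.8-fold. CPK29 (LOC4351829) read 14.04 and 10.3 in 5-min stigmas, against 0.529, 0.635 and 0.268 in unpollinated stigmas. The 2 groups lay far apart, a difference of 26.8-fold (log2 change 4.75 ± 0.75, adjusted p = 0.000296). CPK2 (LOC4327560) read 7.53 and 5.67 in 5-min stigmas, against 0.385, 0.469 and 0.148 in unpollinated stigmas, 21.9-fold (log2 change 4.45 ± 0.67, adjusted p = 0.000218). The table gives CPK2 as a synonym of CPK19 as well, and the name is used here for this locus. CPK21 (LOC4346187) read 6.03 and 4.19 in 5-min stigmas, against 0.406, 0.346 and 0.185 in unpollinated stigmas, 16.96-fold (log2 change 4.08 ± 0.46, adjusted p = 1.38e-05). CPK22 (LOC4347564) read 10.2 and 7.65 in 5-min stigmas, against 0.584, 0.854 and 0.367 in unpollinated stigmas, 15.6-fold (log2 change 3.96 ± 0.65, adjusted p = 0.000445). For all 4 genes, named because they were called, every 5-min array lay above every unpollinated array, and such separation was not counted over all probe sets.

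These 4 kinases also rose in the pollinated ovary, to lower levels than in the pollinated stigma. CPK29 read 1.36, 2.72 and 1.03 in 5-min ovaries, against 0.0942, 0.225 and 0.147 in unpollinated ovaries, 1 of them under the floor, 9.65-fold (log2 change 3.27 ± 0.67, adjusted p = 0.00754) with that array set to the floor. CPK2 read 0.678, 1.99 and 0.7598 in 5-min ovaries, against 0.0962, 0.1200 and 0.125 in unpollinated ovaries, where all 3 arrays were at the floor, at least 7.88-fold (log2 change 2.98 ± 0.60, adjusted p = 0.0072). CPK22 read 1.01, 1.93 and 0.878 in 5-min ovaries, against 0.136, 0.273 and 0.207 in unpollinated ovaries, 6.07-fold (log2 change 2.60 ± 0.59, adjusted p = 0.0139). CPK21 read 1.02, 1.5 and 0.763 in 5-min ovaries, against 0.227, 0.281 and 0.156 in unpollinated ovaries, 4.89-fold (log2 change 2.29 ± 0.41, adjusted p = 0.00313). Between the pollinated tissues the 5-min stigma was higher than the 5-min ovary by 7.701-fold for CPK29, 7.38-fold for CPK22, 6.48-fold for CPK2 and 4.78-fold for CPK21, with adjusted p-values between 0.00121 and 0.00609. In unpollinated tissues none of the 4 was called between stigma and ovary. CPK22 in the ovary lost its call without each of 3 arrays (unpollinated replicates 1 and 3 and 5-min replicate 2), with adjusted p-values of at most 0.0549.

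The pollen markers EXPB9 and EXPB10, both beta-expansins, were compared with these kinases and with CIPK30 array by array. EXPB9 read 66.02 and 62.5 in 5-min stigmas and 3.83, 4.38 and 2.35 in unpollinated stigmas, and 9.13, 19.5 and 8.12 in 5-min ovaries and 0.1795, 0.328 and 0.487 in unpollinated ovaries. In pistils it read 10.9, 2.41 and 4.25 at 15 to 25 min, 15.5, 19.5 and 1.46 at 40 to 50 min and 10.1, 11.3 and 13.2 at 5 to 7 h. EXPB10 read 1.86 and 0.984 in 5-min stigmas and 0.261, 0.549 and 0.446 in unpollinated stigmas, and 0.246, 0.299 and 0.282 in 5-min ovaries and 0.0843, 0.185 and 0.184 in unpollinated ovaries. In pistils it read 0.265, 0.185 and 0.205, then 0.401, 0.305 and 0.121, then 0.132, 0.236 and 0.172 at the 3 times in order, and its mean at each time lay below that of unpollinated stigmas, whereas the mean of EXPB9 lay above. Replicate 3 of the 40 to 50 min pistils was the lowest of its group for EXPB9, EXPB10 and each of CPK2, CPK21, CPK22, CPK29 and CIPK30, and the highest array there exceeded it by 13.4-fold for EXPB9, 10.2-fold for CPK29, 7.60-fold for CPK22, 7.21-fold for CPK2, 4.57-fold for CIPK30 and 3.195-fold for CPK21. Replicate 1 was the highest of the 15 to 25 min pistils, and replicate 2 the highest of the 5-min ovaries, for EXPB9 and all 5 kinases. The unpollinated stigma held EXPB9 above the unpollinated ovary, and its replicate 3 was lowest for EXPB9 and all 5 kinases. EXPB10 was lowest there in replicate 1. In unpollinated ovaries the order differed: EXPB9, CPK2 and CIPK30 were highest in replicate 3, and CPK21, CPK22 and CPK29 in replicate 2. At 40 to 50 min CPK22 and CPK29 were highest in replicate 1 and EXPB9 in replicate 2. At 5 to 7 h CIPK30 was highest in replicate 2 and EXPB9 in replicate 3. In 5-min ovaries CPK2 was lowest in replicate 1 and EXPB9 in replicate 3. Such orders of arrays were not counted over all probe sets. The part of pollen RNA in the change of these kinases was not tested.

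**Figure D2:**
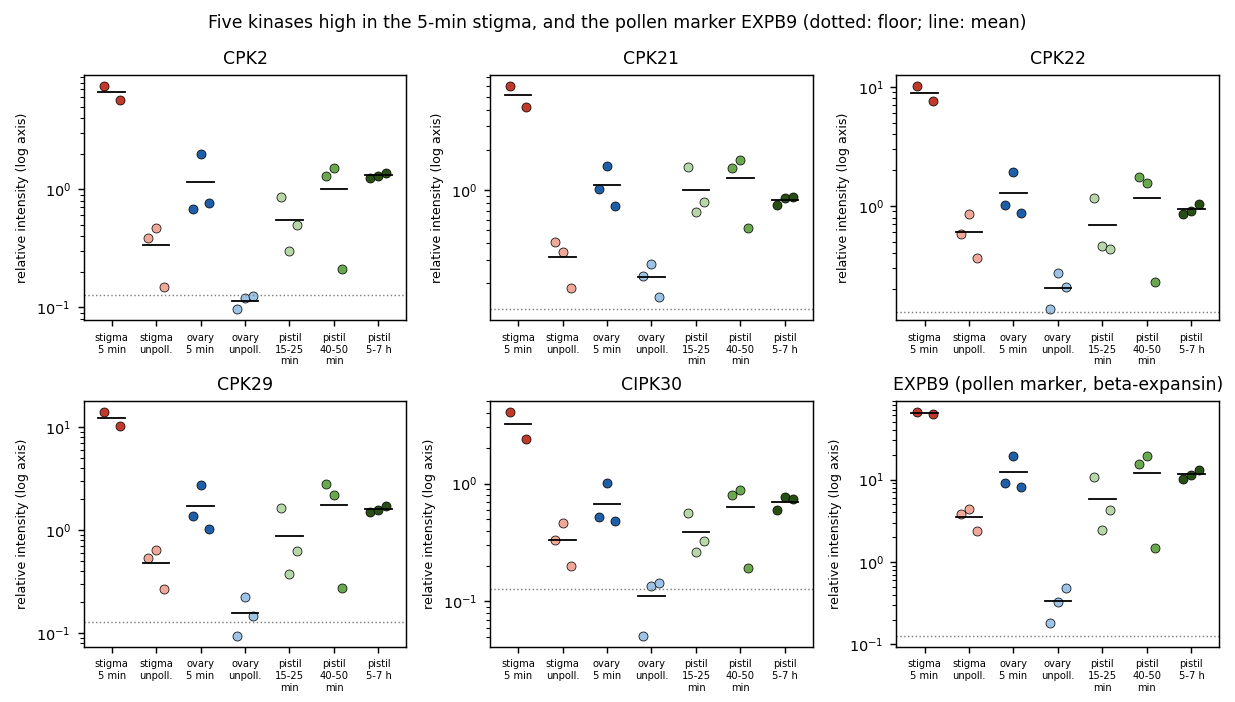
Relative intensity (log axis) of CPK2, CPK21, CPK22, CPK29, CIPK30 and the pollen marker EXPB9 on each array; points are arrays, horizontal lines group means and the dotted line the floor of 0.128. All 6 are highest in the 5-min stigma, and replicate 3 of the 40 to 50 min pistils lies lowest of its group in every panel.

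CPK12, a kinase linked to salt tolerance in rice, rose from near the floor in the stigma and was highest there in replicate 2. It read 0.485 and 1.08 in 5-min stigmas, against 0.116, 0.147 and 0.131 in unpollinated stigmas, 5.36-fold (log2 change 2.42 ± 0.43, adjusted p = 0.000789), with 1 unpollinated array under the floor. In ovaries it read 0.415, 0.135 and 0.5496 at 5 min, against 0.118, 0.1805 and 0.1396 unpollinated, and the arrays overlapped (log2 change 1.09 ± 0.38, adjusted p = 0.106). CPK4 read 1.73 and 1.87 in 5-min stigmas, against 0.917, 1.22 and 1.26 in unpollinated stigmas (log2 change 0.68 ± 0.23, adjusted p = 0.044). Leaving out any of 12 arrays, 8 of them from groups outside that comparison, ended the call of CPK4. CPK13, also known as OsCDPK7 and linked to cold, salt and drought tolerance in rice, read 17.5, 13.9 and 17.3 in 5-min ovaries, against 10.3, 9.93 and 6.03 in unpollinated ovaries (log2 change 0.92 ± 0.22, adjusted p = 0.0168). In stigmas CPK13 read 18.1 and 19.6 at 5 min, against 13.1, 8.37 and 16.3 unpollinated (log2 change 0.63 ± 0.24, adjusted p = 0.0696), and its other probe set passed in the stigma (0.85 ± 0.27, adjusted p = 0.0308) and not in the ovary (0.62 ± 0.24, adjusted p = 0.146).

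The CPK genes that fell in the pollinated stigma changed by less. CPK24, linked to cold tolerance in rice, read 2.79 and 2.09 in 5-min stigmas, against 6.57, 8.43 and 3.39 in unpollinated stigmas (log2 change -1.25 ± 0.30, adjusted p = 0.00683). CPK1 read 4.47 and 3.08 in 5-min stigmas, against 7.53, 9.24 and 6.76 in unpollinated stigmas (log2 change -1.07 ± 0.19, adjusted p = 0.000852). CPK5 read 1.48 and 1.37 in 5-min stigmas, against 2.61, 2.87 and 1.68 in unpollinated stigmas (log2 change -0.71 ± 0.20, adjusted p = 0.0173). CPK23, also called SPK and known from sucrose synthase phosphorylation in rice seeds, read 2.91 and 1.99 in 5-min stigmas, against 3.74, 4.44 and 3.46 in unpollinated stigmas (log2 change -0.68 ± 0.22, adjusted p = 0.0313). CPK17 fell by less still, 3.501 and 2.69 against 4.49, 4.16 and 4.06 (log2 change -0.46 ± 0.15, adjusted p = 0.0292). For all 5, named because they were called, the groups did not overlap, and such separation was not counted over all probe sets. Scaling each array on 9103 probe sets bright on every array shifted the all-probe-set median by 0.23 in this comparison, centring on array medians shifted it by -0.14, and either setting ended the calls of CPK5, CPK17, CPK23 and CIPK7. Their log2 changes were then -0.48, -0.24, -0.45 and -0.74 with scaling on bright probe sets, and -0.85, -0.60, -0.82 and -1.11 with larger standard errors (0.28 to 0.39) with median centring. Without 5-min stigma replicate 2, 10 genes were higher and 1 lower in place of 15 and 7, and without unpollinated stigma replicate 2, 11 and 3.

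**Figure D3:**
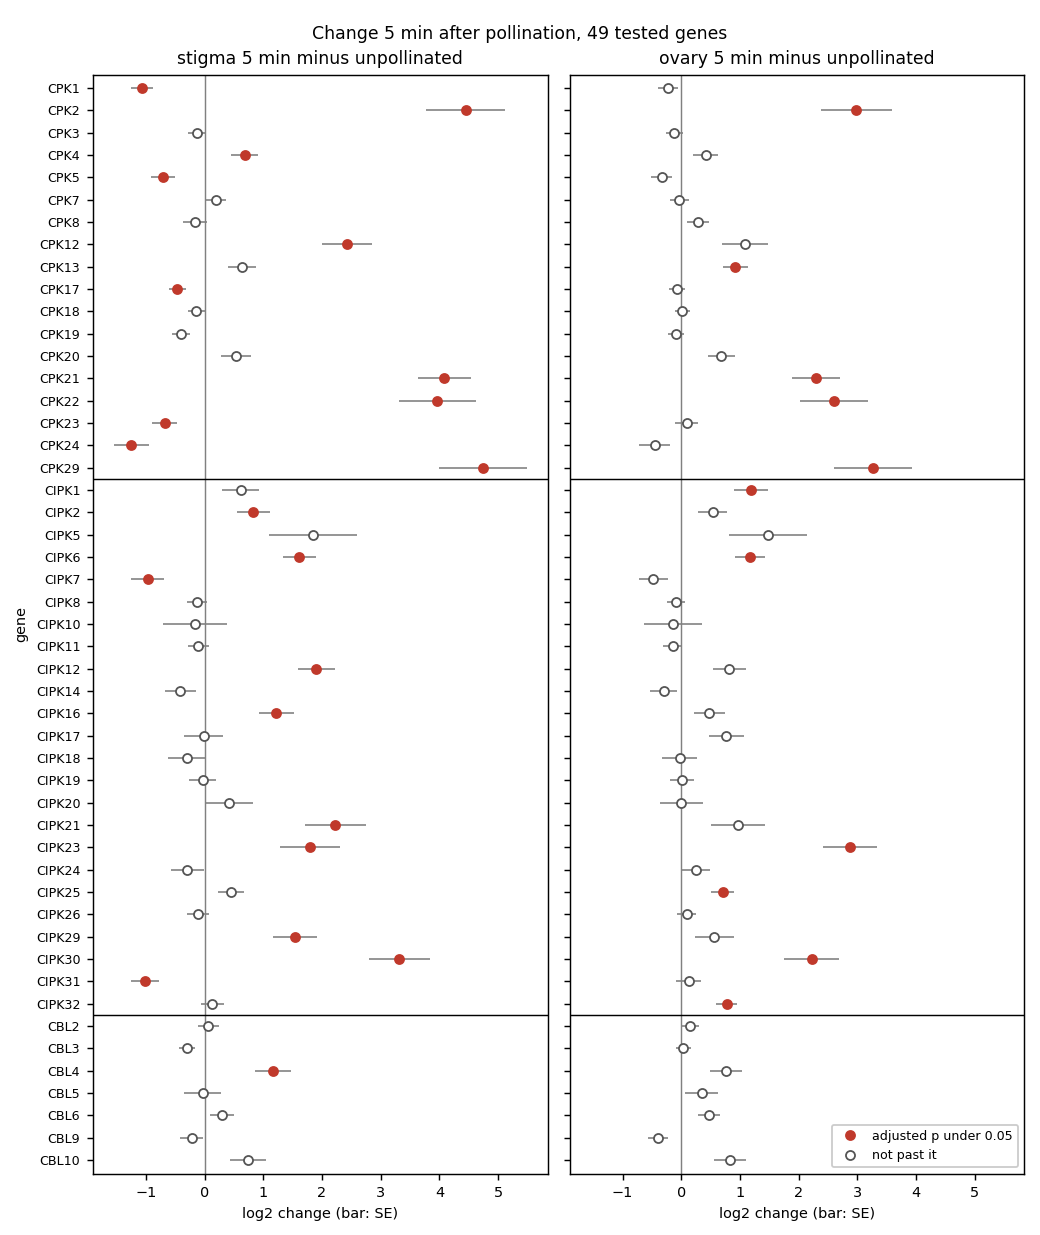
Log2 change 5 min after pollination of the 49 tested genes, stigma on the left and ovary on the right; bars are standard errors, filled points have an adjusted p under 0.05 and open points do not. The rises of CPK2, CPK21, CPK22, CPK29 and CIPK30 are the longest in the stigma, and the filled points left of 0 are in the stigma panel only.

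Among the CIPK genes, CIPK30 rose most in the pollinated stigma, and it rose in the pollinated ovary as well. CIPK30 (LOC4325611) read 4.06 and 2.38 in 5-min stigmas, against 0.329, 0.459 and 0.2003 in unpollinated stigmas, 9.96-fold (log2 change 3.32 ± 0.52, adjusted p = 0.000301). In ovaries it read 0.523, 1.01 and 0.485 at 5 min, against 0.0513, 0.135 and 0.144 unpollinated, 1 of them under the floor, 4.68-fold (log2 change 2.23 ± 0.47, adjusted p = 0.00922). CIPK12 (LOC4325613) is listed next to CIPK30 among the protein-coding genes of the RefSeq assembly ASM3414082v1. By its brighter probe set CIPK12 read 1.202 and 1.09 in 5-min stigmas, against 0.2403, 0.215 and 0.552 in unpollinated stigmas, 3.74-fold (log2 change 1.90 ± 0.31, adjusted p = 0.00038). In ovaries that probe set had log2 change 0.82 ± 0.28, adjusted p = 0.0904. The other probe set of CIPK12 rose by less in the stigma (log2 change 1.09 ± 0.28, adjusted p = 0.00987). In the ovary it had 0.32 ± 0.25 (adjusted p = 0.542). CIPK21 read 2.21 and 0.983 in 5-min stigmas, against 0.239, 0.264 and 0.497 in unpollinated stigmas, 4.68-fold (log2 change 2.23 ± 0.52, adjusted p = 0.0053), and without 5-min stigma replicate 1 its log2 change was 1.64 and not called. The gene pair CIPK29 and CIPK2, next to each other in the same list of protein-coding genes, also rose in the stigma. CIPK29 read 9.47 and 4.02 in 5-min stigmas, against 3.005, 1.52 and 2.12 in unpollinated stigmas (log2 change 1.53 ± 0.38, adjusted p = 0.00721), and CIPK2 had log2 change 0.83 ± 0.28, adjusted p = 0.0374.

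CIPK6 and CIPK16, both higher in unpollinated ovaries than in unpollinated stigmas, rose in the pollinated stigma. CIPK6 read 0.666 and 1.02 in 5-min stigmas, against 0.243, 0.2200 and 0.367 in unpollinated stigmas, 3.06-fold (log2 change 1.61 ± 0.28, adjusted p = 0.000708). In ovaries CIPK6 read 2.52, 1.25 and 2.47 at 5 min, against 1.03, 0.922 and 0.722 unpollinated, 2.25-fold (log2 change 1.17 ± 0.25, adjusted p = 0.0109). CIPK16 read 0.744 and 0.7499 in 5-min stigmas, against 0.252, 0.2398 and 0.546 in unpollinated stigmas (log2 change 1.22 ± 0.30, adjusted p = 0.00676). The ovule gene MADS21 was also higher in 5-min stigmas, by 1.22 ± 0.39 on the log2 scale (adjusted p = 0.0344), and its part in these rises was not tested. Of the 7 carpel and ovule genes only MADS21 was called higher, 2 were lower, and the median log2 change was -0.01. In ovaries CIPK1 read 7.42, 7.33 and 6.31 at 5 min, against 5.12, 2.57 and 2.21 unpollinated (log2 change 1.19 ± 0.28, adjusted p = 0.0196). CIPK32 read 9.28, 9.21 and 9.19 in 5-min ovaries, against 4.39, 7.29 and 4.904 in unpollinated ovaries (log2 change 0.77 ± 0.17, adjusted p = 0.0141), but its probe cluster is also assigned to its neighbour CML3, so the signal's source is uncertain. CIPK25 changed least of those called in the ovary (log2 change 0.71 ± 0.20, adjusted p = 0.0442). The calls of CIPK1, CIPK6, CIPK25, CIPK32 and CPK13 in the ovary were lost without 5-min ovary replicate 1 or 3 or without unpollinated ovary replicate 3, and 6, 6 and 5 genes were then called in place of 11.

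CIPK23, a kinase of potassium uptake and one that earlier work on rice linked to pollination and drought, was reported by 2 probe sets that disagreed. The brighter read 24.97 and 32.2 in 5-min stigmas, against 9.73, 3.195 and 17.5 in unpollinated stigmas, 3.48-fold (log2 change 1.80 ± 0.51, adjusted p = 0.0172). In ovaries it read 18.2, 11.05 and 11.7 at 5 min, against 3.09, 1.704 and 1.12 unpollinated, 7.36-fold (log2 change 2.88 ± 0.46, adjusted p = 0.00121). The other probe set read 3.82 and 3.39 in 5-min stigmas, against 4.83, 5.15 and 3.39 in unpollinated stigmas, and 3.67, 3.59 and 3.202 in 5-min ovaries, against 4.29, 4.74 and 5.46 in unpollinated ovaries. Its log2 change was -0.29 ± 0.18 in the stigma (adjusted p = 0.294) and -0.46 ± 0.16 in the ovary (adjusted p = 0.0943), so a rise of CIPK23 rests on 1 of its 2 probe sets. Which transcript each probe set reports was not tested. Replicate 2 of the unpollinated stigma read 3.20 for the brighter one, under the other two arrays, and without it the stigma rise was 1.12 on the log2 scale and not called, as was the rise of 1.61 without 5-min stigma replicate 2.

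CIPK31, also known as OsCK1, fell in the pollinated stigma, and the probe sets of CIPK7 disagreed. CIPK31 read 2.69 and 2.12 in 5-min stigmas, against 5.42, 4.16 and 4.97 in unpollinated stigmas (log2 change -1.01 ± 0.24, adjusted p = 0.00558). In ovaries CIPK31 read 2.47, 3.18 and 3.08 at 5 min, against 2.55, 3.85 and 1.88 unpollinated (log2 change 0.13 ± 0.21, adjusted p = 0.835). CIPK7 read 4.09 and 2.52 in 5-min stigmas, against 4.397, 9.62 and 5.84 in unpollinated stigmas (log2 change -0.97 ± 0.28, adjusted p = 0.0203), but its other probe set rose (0.92 ± 0.27, adjusted p = 0.0205), so the direction for CIPK7 is unsettled. CIPK31's other probe set had -0.43 ± 0.27 in the stigma and did not pass.

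No gene of the 3 families passed the test of whether the stigma changed differently from the ovary, where limma called 1.37% of all probe sets (0.897% higher and 0.476% lower). An unadjusted p under 0.05 was found for 7 of the 49. The lowest adjusted p was that of CIPK31 (0.094), with a log2 difference of -1.14 ± 0.32, followed by CPK1 with -0.83 ± 0.26 and CPK21 with 1.80 ± 0.61. The falls called in the stigma and not in the ovary were therefore not shown to differ between the tissues. Without 5-min stigma replicate 1, unpollinated stigma replicate 3 or unpollinated ovary replicate 2, 1 gene passed in each case.

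The stigma and ovary differed in these genes before pollination. Of 49 genes, 23 were higher and 4 lower in unpollinated stigmas than in unpollinated ovaries, where 19.7% of all probe sets were higher and 13.1% lower (32.8% called). The median log2 difference of the 49 was 0.58, against 0.22 over all probe sets. By family, 14 of 24 CIPK, 7 of 18 CPK and 2 of 7 CBL genes were higher in the stigma. Centring arrays on their medians shifted the all-probe-set median by -0.31 and gave 10 higher and 6 lower, quantile normalization shifted it by -0.19 and gave 17 and 7, and scaling on the bright probe sets shifted it by -0.20 and gave 17 and 6.

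CIPK24, the rice SOS2, which activates the sodium exporter SOS1 together with CBL4, differed most. It read 17.2, 11.1 and 20.99 in unpollinated stigmas, against 1.19, 1.05 and 1.41 in unpollinated ovaries, 13.2-fold (log2 change 3.72 ± 0.25, adjusted p = 5.32e-09). At 5 min it read 17.7 and 9.496 in stigmas, against 1.38, 1.83 and 1.16 in ovaries, 9.05-fold (log2 change 3.18 ± 0.28, adjusted p = 5.61e-07). Pollination itself gave no call for it in either tissue (-0.29 ± 0.28 in the stigma, 0.25 ± 0.25 in the ovary). CIPK17 read 19.4, 6.53 and 10.8 in unpollinated stigmas, against 1.03, 1.76 and 1.37 in unpollinated ovaries, 8.18-fold (log2 change 3.03 ± 0.30, adjusted p = 4.14e-07). CIPK1 read 20.2, 11.3 and 28.1 in unpollinated stigmas, against 5.12, 2.57 and 2.21 in unpollinated ovaries, 6.05-fold (log2 change 2.60 ± 0.28, adjusted p = 1.72e-06). CIPK23, by its brighter probe set, was 4.52-fold higher in unpollinated stigmas, and its other probe set had -0.13 ± 0.16. CIPK5 read 18.5, 3.23 and 25.03 in unpollinated stigmas, against 6.13, 3.06 and 0.651 in unpollinated ovaries, and the arrays overlapped (log2 change 2.31 ± 0.67, adjusted p = 0.0129). Replicate 2 of the unpollinated stigma was low for CIPK5 and high for CIPK10 (0.849, 5.42 and 1.95) and CIPK7.

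CIPK14 read 9.19, 7.57 and 10.5 in unpollinated stigmas, against 3.32, 2.25 and 2.23 in unpollinated ovaries, 3.53-fold (log2 change 1.82 ± 0.23, adjusted p = 9.73e-06). Among the CPK genes, CPK8 read 3.896, 2.82 and 4.43 in unpollinated stigmas, against 1.62, 1.22 and 1.33 in unpollinated ovaries, 2.65-fold (log2 change 1.40 ± 0.18, adjusted p = 1.43e-05). CPK23 was 2.41-fold and CPK20 2.23-fold higher in unpollinated stigmas. The remaining higher genes differed by 1.299 to 2.35-fold. Lower in unpollinated stigmas was CIPK6, with 0.243, 0.2200 and 0.367 against 1.03, 0.922 and 0.722 in unpollinated ovaries (log2 change -1.71 ± 0.25, adjusted p = 4.89e-05). CIPK16 was lower as well with overlapping arrays (log2 change -1.17 ± 0.26, adjusted p = 0.00244), as were CBL9 (-0.61) and CPK18 (-0.45), a kinase that acts with the MAP kinase MPK5 in rice immunity. The stamen and lodicule genes summed to 125.4 to 135.5 in unpollinated stigmas and 34.3 to 68.9 in unpollinated ovaries. Of these 4 genes 2 were called higher in the stigma, as were 2 of 2 pollen and 2 of 3 tested tapetum and anther wall genes. Over all probe sets 19.7% were higher. The 7 carpel and ovule genes, 2 higher and 2 lower, summed to 173 to 207 in unpollinated stigmas and 148 to 177 in unpollinated ovaries. The part of any of these tissues in the differences was not tested.

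At 5 min 24 of the 49 were higher and 3 lower in the stigma than in the ovary, where 20.7% of all probe sets were higher and 14.3% lower (35% called). The median log2 difference was 0.59, against 0.24 over all probe sets. Beyond the kinases above, CIPK5 read 54.01 and 31.5 in 5-min stigmas, against 4.83, 9.03 and 6.05 in 5-min ovaries, 6.43-fold (log2 change 2.68 ± 0.74, adjusted p = 0.0107), and CIPK12 was 4.26-fold higher. The other probe set of CIPK12 had log2 change 1.56 ± 0.28, adjusted p = 0.000449. The 3 lower in 5-min stigmas were CIPK6 (log2 change -1.26 ± 0.28, adjusted p = 0.00251), CPK5 (log2 change -0.79 ± 0.20, adjusted p = 0.00635) and CPK18 (log2 change -0.61 ± 0.14, adjusted p = 0.00407). Centring on array medians shifted the all-probe-set median by -0.40 and gave 11 higher and 7 lower, and quantile normalization shifted it by -0.25 and gave 18 and 6. Without 5-min stigma replicate 1 the count was 16 in place of 27.

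**Figure D4:**
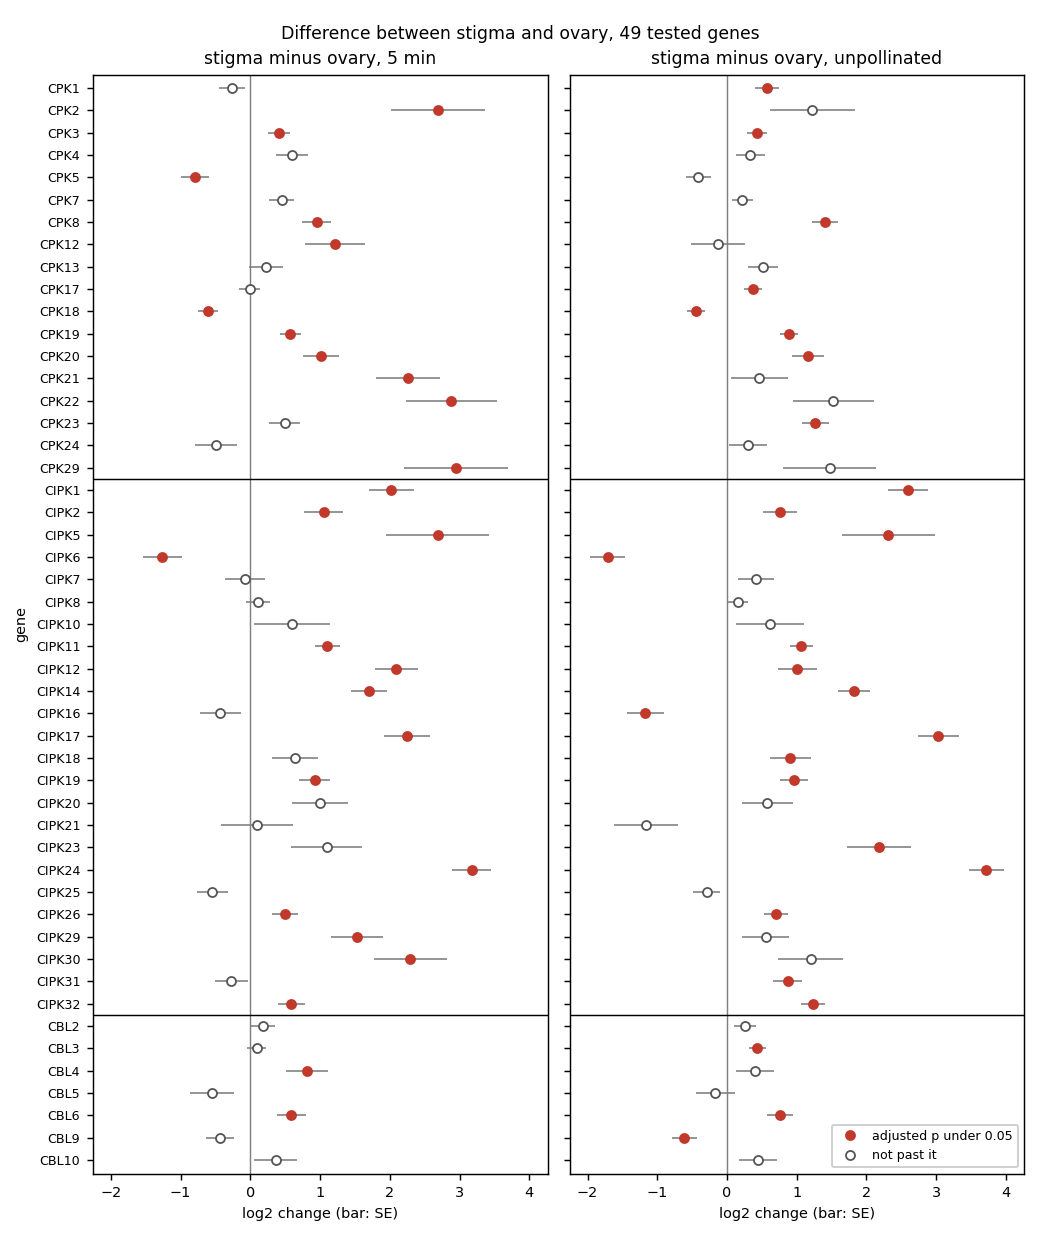
Log2 difference between stigma and ovary of the 49 tested genes, 5 min after pollination on the left and unpollinated on the right; bars are standard errors, filled points have an adjusted p under 0.05 and open points do not. CIPK24, CIPK17 and CIPK1 lie far to the right in both panels, and CIPK6 lies to the left in both.

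Whole pistils were set against both unpollinated tissues, and a gene was called only where it passed against each in the same direction. The 3 pistil comparisons share these unpollinated arrays. At 15 to 25 min 7 genes were higher and 0 lower, where 4.02% of all probe sets were higher and 1.98% lower (6% called). At 40 to 50 min 6 were higher and 0 lower, where 2.52% were higher and 1.45% lower (3.97% called). At 5 to 7 h 8 were higher and 3 lower, where 8.61% were higher and 7.41% lower (16% called). The median of the smaller of both log2 changes was 0.16, 0.09 and -0.01 for the 49 genes at the 3 times in order, against -0.04, -0.04 and -0.06 over all probe sets.

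CPK12, CPK13, CPK21, CIPK6 and CIPK23 were called at each of the 3 times. CIPK6 read 2.99, 2.81 and 2.69 at 15 to 25 min, 2.25, 2.59 and 2.79 at 40 to 50 min and 3.18, 2.798 and 2.57 at 5 to 7 h. Every pistil array lay above all 6 unpollinated arrays, and at 5 to 7 h the log2 change was 3.40 ± 0.25 against the unpollinated stigma and 1.69 ± 0.25 against the unpollinated ovary (adjusted p = 8.13e-05 for the weaker). CPK12 read 0.687, 0.8101 and 0.548 at 15 to 25 min, 0.832, 0.536 and 0.787 at 40 to 50 min and 0.581, 0.6099 and 0.595 at 5 to 7 h. It stayed at these levels, at least 4.56-, 4.78- and 4.03-fold above the unpollinated ovary, the nearer of both tissues, where 1 of 3 arrays was at the floor. CPK13 read 21.8, 24.2 and 25.4 at 15 to 25 min, 19.3, 21.4 and 19.6 at 40 to 50 min and 20.8, 21.2 and 19.3 at 5 to 7 h. Its smaller log2 changes were 0.97 ± 0.22, 0.73 ± 0.22 and 0.75 ± 0.22, and without unpollinated stigma replicate 2 the calls at 40 to 50 min and 5 to 7 h were lost.

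CPK21 read 1.495, 0.6802 and 0.811 at 15 to 25 min, 1.47, 1.67 and 0.523 at 40 to 50 min and 0.769, 0.871 and 0.8799 at 5 to 7 h, and its smaller log2 changes were 1.66 ± 0.41, 1.88 ± 0.41 and 1.5 ± 0.41. All of these pistil arrays were below both 5-min stigma arrays. CIPK23, by its brighter probe set, read 20.6, 29.2 and 14.7 at 15 to 25 min, 17.96, 27.6 and 24.8 at 40 to 50 min and 22.9, 20.1 and 18.7 at 5 to 7 h. Its smaller log2 changes were 1.34 ± 0.46, 1.5 ± 0.46 and 1.33 ± 0.46, the other probe set had -0.22, -0.20 and -0.07, and leaving out unpollinated stigma replicate 2 ended all 3 calls. CIPK25 was called at the first 2 times, with 0.88 ± 0.20 at 15 to 25 min and 0.65 ± 0.20 at 40 to 50 min. CPK4 was called at 15 to 25 min, where it read 2.43, 1.58 and 3.06, with log2 change 1.02 ± 0.21, adjusted p = 0.00124.

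CPK2, CPK29 and CIPK30 passed against both tissues at 5 to 7 h. CPK2 read 0.864, 0.301 and 0.495 at 15 to 25 min, 1.295, 1.51 and 0.209 at 40 to 50 min and 1.24, 1.298 and 1.38 at 5 to 7 h, where it was 4.37-fold above the unpollinated stigma (adjusted p = 0.00768). CPK29 read 1.62, 0.371 and 0.622, then 2.77, 2.19 and 0.2704, then 1.51, 1.56 and 1.71 at these times, with log2 change 1.83 ± 0.67, adjusted p = 0.0304 at 5 to 7 h. CIPK30 had log2 change 1.16 ± 0.47, adjusted p = 0.0467 at 5 to 7 h. The call of CPK29 ended without unpollinated stigma replicate 3 (log2 change 1.46) or any of the 3 arrays at 5 to 7 h (1.78 to 1.87). The call of CIPK30 ended without any of 10 arrays, among them all 3 at 5 to 7 h, all 3 of the unpollinated ovary and unpollinated stigma replicates 1 and 3, with a log2 change of 0.84 to 1.28, while CPK2 kept its call without any 1 array. The 5 to 7 h arrays of these genes were close together, while the earlier pistil arrays were spread, as for EXPB9. EXPB10 read 0.132, 0.236 and 0.172 at 5 to 7 h. The spread of arrays within these groups was not counted over all probe sets. CPK22 at 5 to 7 h passed against the ovary (2.24 ± 0.59, adjusted p = 0.00858) and not against the stigma (0.72 ± 0.59, adjusted p = 0.309).

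Lower at 5 to 7 h than in either unpollinated tissue were CPK7, CPK17 and CPK19. CPK19 read 4.303, 4.71 and 4.77 in 5 to 7 h pistils, against 11.9, 11.2 and 11.5 in unpollinated stigmas and 5.81, 6.18 and 6.73 in unpollinated ovaries (log2 change -0.44 ± 0.13, adjusted p = 0.0221). CPK17 read 2.15, 2.21 and 2.68 in 5 to 7 h pistils, against 4.49, 4.16 and 4.06 in unpollinated stigmas and 3.54, 2.95 and 3.31 in unpollinated ovaries (log2 change -0.48 ± 0.13, adjusted p = 0.0106). CPK7 had log2 change -0.47 ± 0.16, adjusted p = 0.0348. Centring on array medians ended these 3 calls, which left 9 higher and 0 lower. Without 5 to 7 h replicate 1 the calls were 5 higher and 0 lower, without replicate 2 they were 6 and 1, and at 40 to 50 min leaving out replicate 2 of that group left 3.

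**Figure D5:**
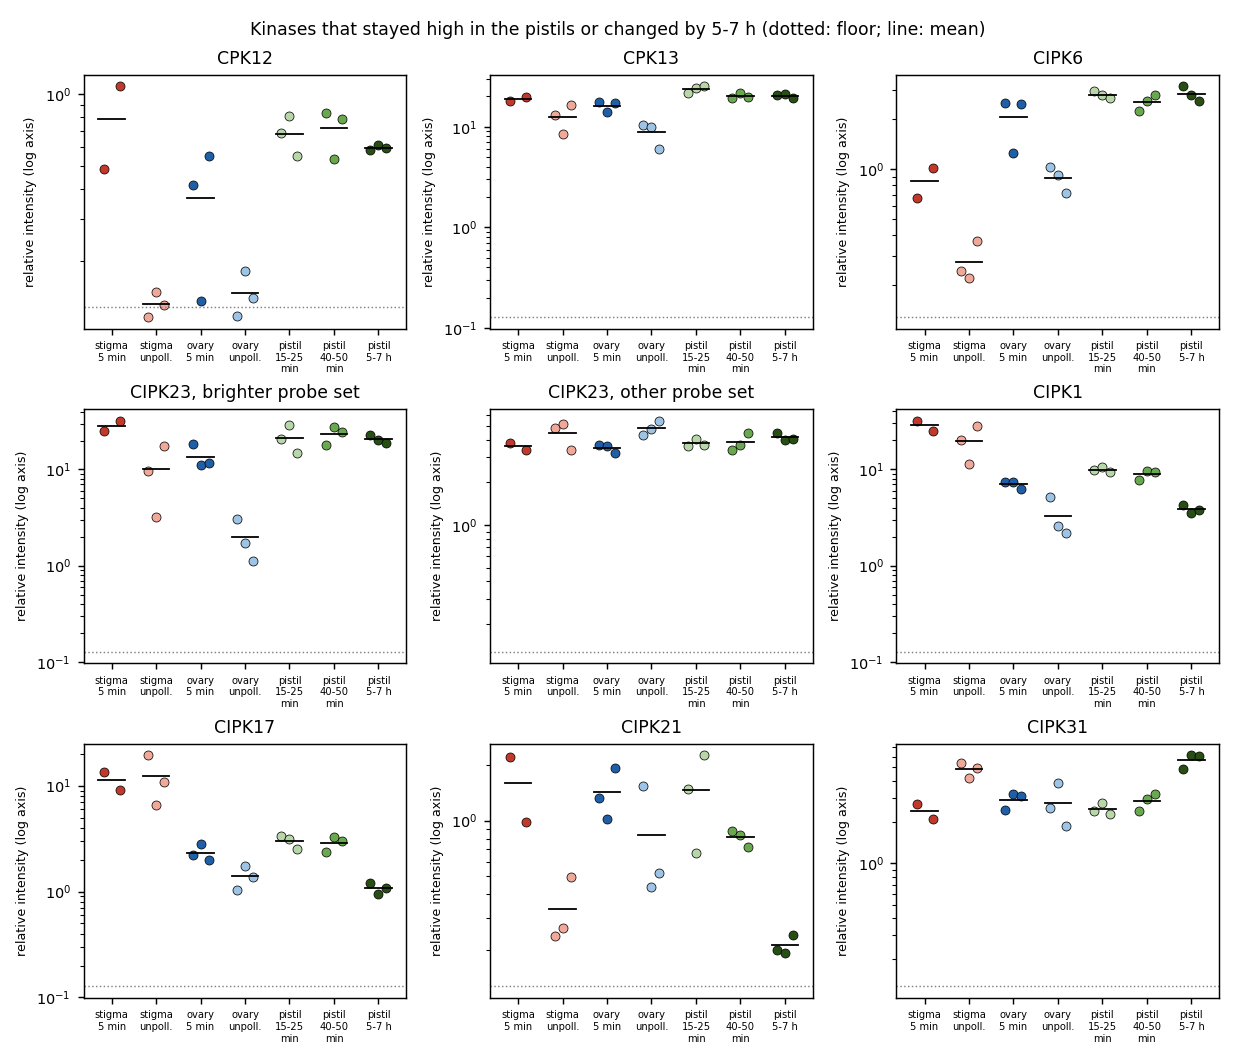
Relative intensity (log axis) on each array for CPK12, CPK13, CIPK6, both probe sets of CIPK23, CIPK1, CIPK17, CIPK21 and CIPK31; points are arrays, horizontal lines group means and the dotted line the floor of 0.128. CPK12, CPK13 and CIPK6 stay above the unpollinated tissues in the pistils, the other CIPK23 probe set shows no such rise, and CIPK21 is lowest and CIPK31 highest at 5 to 7 h.

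Between 40 to 50 min and 15 to 25 min no gene of the families, and 0% of all probe sets, was called by limma, and 2 of the 49 had an unadjusted p under 0.05 (CPK20 with -0.67 and CPK4 with -0.53). Between 5 to 7 h and 40 to 50 min 3 genes were higher and 6 lower, where 11.2% of all probe sets were higher and 6.79% lower (18% called). Their median log2 change was -0.18, against -0.03 over all probe sets. CIPK21 fell to 0.201, 0.193 and 0.242 in 5 to 7 h pistils, against 0.884, 0.839 and 0.7203 in 40 to 50 min pistils (log2 change -1.94 ± 0.46, adjusted p = 0.00697). CIPK17 read 1.21, 0.958 and 1.07 in 5 to 7 h pistils, against 2.36, 3.27 and 2.97 in 40 to 50 min pistils (log2 change -1.40 ± 0.30, adjusted p = 0.00295). CIPK1 read 4.28, 3.51 and 3.796 in 5 to 7 h pistils, against 7.77, 9.66 and 9.47 in 40 to 50 min pistils (log2 change -1.21 ± 0.28, adjusted p = 0.00633). CIPK32 had log2 change -0.81 ± 0.17, adjusted p = 0.00333.

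CIPK31 rose to 4.85, 6.15 and 6.03 in 5 to 7 h pistils, against 2.403, 2.95 and 3.22 in 40 to 50 min pistils (log2 change 0.99 ± 0.21, adjusted p = 0.00329), while its other probe set had 0.55 ± 0.24 (adjusted p = 0.127). CPK23 read 2.66, 2.76 and 3.03 in 5 to 7 h pistils, against 1.84, 1.33 and 2.03 in 40 to 50 min pistils (log2 change 0.72 ± 0.19, adjusted p = 0.0147). CIPK11 had log2 change 0.54 ± 0.16, adjusted p = 0.0285. The stamen and lodicule genes summed to 19.6 to 23.2 at 5 to 7 h and 34.8 to 35.7 at 40 to 50 min, and MADS29 read 8.28, 7.702 and 7.43 at 5 to 7 h, against 4.04, 4.91 and 3.19 at 40 to 50 min. MADS29 is 1 of 2 nucellus and early endosperm genes measured. Of these 2, 0 were called in this comparison, and their median log2 change was 0.25. The part of changing tissue makeup was not tested. Quantile normalization gave 3 higher and 11 lower, scaling on the bright probe sets 3 and 10, and centring on medians, which shifted the all-probe-set median by 0.13, 2 and 3.

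Of the 7 CBL sensors, 1 was called in 5-min stigmas (14.3%, where 22% of all probe sets were called), 0 in 5-min ovaries (5.9% of all), and 2 between 5 to 7 h and 40 to 50 min pistils (28.6%, where 18% of all were called). CBL4, the rice SOS3 and partner of CIPK24, was the CBL gene called in the pollinated stigma. It read 0.554 and 0.532 in 5-min stigmas, against 0.246, 0.171 and 0.336 in unpollinated stigmas, 2.25-fold (log2 change 1.17 ± 0.31, adjusted p = 0.0107), and without replicate 2 of either group it was not called. In ovaries CBL4 read 0.324, 0.297 and 0.307 at 5 min, against 0.197, 0.245 and 0.126 unpollinated (log2 change 0.75 ± 0.27, adjusted p = 0.115). In the unpollinated tissues CBL6 was 1.69-fold and CBL3 1.35-fold higher in the stigma, and CBL9 was lower. CBL10, which in Arabidopsis pairs with CIPK24 in shoots, read 1.13, 1.58 and 1.46 in 5 to 7 h pistils, against 2.65, 2.23 and 2.86 in 40 to 50 min pistils (log2 change -0.90 ± 0.27, adjusted p = 0.0288). CBL2, a sensor at the vacuolar membrane in Arabidopsis, read 2.53, 2.62 and 2.75 in 5 to 7 h pistils, against 3.804, 4.103 and 3.22 in 40 to 50 min pistils (log2 change -0.49 ± 0.16, adjusted p = 0.0365). Over all 20 arrays the highest value exceeded the lowest by 1.77-fold for CBL2 and 1.89-fold for CBL3, against 83.0-fold for CIPK5 and 75.3-fold for CPK22. With values under the floor set to it, CPK29 ranged over at least 110-fold and CPK2 over at least 58.9-fold.

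In all, 45 of the 49 tested genes were called in at least 1 of 10 comparisons and 4 in none. The share of all tested probe sets called in at least 1 comparison was not counted, and single comparisons called up to 35% of them. CIPK8 varied least, by 1.57-fold over the 20 arrays, with 2.28 and 2.13 in 5-min stigmas and 2.59, 2.46 and 2.21 in unpollinated stigmas. CIPK10, CIPK20 and CBL5 were the others called in none. CBL5 is the name used here for a gene that the table also calls CBL2.

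Other genes of calcium signalling and of the ion transport that these kinases control were counted from lists of symbols. Of 26 calmodulins and calmodulin-like proteins, calcium sensors with no kinase of their own, 10 were higher (38.5%, against 8.61% of all probe sets) and 2 lower (7.69%, against 13.4%) in 5-min stigmas, with a median log2 change of 0.34, against -0.02 over all probe sets. CML31 (3.40 ± 0.73, adjusted p = 0.0031) and CML4 (3.32 ± 0.58, adjusted p = 0.00075) rose most. In 5-min ovaries CML4 was the 1 called (2.27 ± 0.52), 3.85% of the list against 5.9% of all probe sets, and against both unpollinated tissues CML4 had 2.88, 2.53 and 1.94 in the pistils at the 3 times in order. Of 10 calcium pumps, exchangers and channels tested, 2 were higher and 4 lower in 5-min stigmas, where 22% of all probe sets were called, and 0 in either direction in 5-min ovaries, where 5.9% were. The calcium ATPase ACA7 rose in 5-min stigmas by 1.26 ± 0.36, and the exchanger CAX1a fell (-1.15 ± 0.26).

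Among 21 tested potassium and sodium transporters, 3 were higher and 3 lower in 5-min stigmas (28.6% called, against 22% of all probe sets), and 4 were higher and 0 lower in 5-min ovaries (19.05% higher, against 3.88% of all). The potassium transporter HAK27 rose in both, by 3.28 ± 0.76 in the stigma and 2.87 ± 0.68 in the ovary, where all 3 unpollinated arrays were at the floor. AKT1, the potassium channel that CIPK23 activates, averaged 1.22 in 5-min stigmas and 0.903 in unpollinated stigmas, and rose in 5-min ovaries, with 0.761 against 0.371 in unpollinated ovaries (1.07 ± 0.27, adjusted p = 0.028). It was chosen for its link to CIPK23 after its values were seen. Between unpollinated stigma and ovary 8 transporters were higher and 2 lower (38.1% and 9.52%, against 19.7% and 13.1% of all probe sets), and HAK20 differed most (5.72 ± 0.59). Of 10 SnRK2 kinases, relatives of the CIPK kinases that act in abscisic acid and osmotic stress signalling, 3 were higher and 0 lower in 5-min stigmas (22% of all probe sets were called), led by OsSAPK1 (1.38 ± 0.25), and in 5-min ovaries OsSAPK10 was lower (-1.21 ± 0.29). The NADPH oxidase OsrbohB, of an enzyme family that CPK and CIPK kinases phosphorylate in other plants, was 4.23 ± 0.25 higher on the log2 scale in unpollinated stigmas than in unpollinated ovaries. Its response at 5 min differed between the tissues (-1.60 ± 0.38 for stigma minus ovary, adjusted p = 0.044), where 1.37% of all probe sets were called. The change of OsrbohB was called in neither tissue by itself (log2 change -0.78 in the stigma and 0.82 in the ovary).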

How the data were processed

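The deposited intensity values are the authors' relative intensities for 57381 probe sets on 20 arrays. They are linear, the 75th percentile of every array is 1, and GCOS 1.3 is named per the submitters' processing notes. The sources used here do not name the scaling step.

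Genes were named through GEO's platform annotation and RefSeq names. Of the probe sets 22436 have 1 gene, 95 several and 34850 none, and 187 controls were left out. Lower values were set to 0.128 before log2. The 35470 probe sets that exceeded their array's median on 2 or more arrays entered 1 limma fit (version 3.58.1, R 4.3.3) over all 7 groups, with trended variances and 13 residual degrees of freedom. For each comparison p-values were adjusted by Benjamini-Hochberg over all of them. For pistils the smaller of both changes and the larger of both adjusted p-values are given. The fit was tested on simulated data.

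Members and lists were chosen with earlier results of these data known. Any called gene could be named, with values by array for up to 5 rises and 5 falls a comparison and some others, and the 2 largest called changes of each pathway list. Lists were described by counts and medians only, and not every list is named in every comparison. Alternatives were 3 scalings, no filter, a higher floor, array weights, a replicate block, a fit of the compared groups alone, other probe sets and each array left out in turn. No sequences or coordinates are shown.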

Additional observations from a re-analysis of the deposited data

How the results depend on the processing

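The 120 log2 changes of genes called over the 10 comparisons were recomputed under 10 alternatives, where these applied, and with each array left out. Changes that were not called in the main fit were left out of this tally. Of the recomputed values 3116 kept their direction and their call, 367 kept the direction but not the call, and 7 turned round. All 7 came from the other probe set of a gene: for CIPK23 the log2 change was -0.29 in the 5-min stigma, -0.46 in the 5-min ovary, -0.13 between unpollinated stigma and ovary, and -0.22, -0.20 and -0.068 in the pistils at the 3 times in order, and for CIPK7 it was 0.92 in the 5-min stigma. Fitting only the groups compared, which leaves fewer arrays to estimate the spread, called 8 genes in place of 22 in the stigma, 6 in place of 11 in the ovary, 15 in place of 27 between unpollinated tissues, 3 in place of 6 at 40 to 50 min and 16 in place of 9 between 5 to 7 h and 40 to 50 min. Array weights gave 11 in the stigma and 16 between 5 to 7 h and 40 to 50 min. Median centring gave 7 in the ovary, 16 between unpollinated tissues and 5 between 5 to 7 h and 40 to 50 min, and quantile normalization 14 in the last. The cause of these shifts was not tested. With each array left out in turn the counts ran from 11 to 26 in the stigma, 5 to 12 in the ovary, 0 to 1 for the difference in response, 23 to 31 between unpollinated tissues and 16 to 29 between 5-min tissues. For pistils they ran from 6 to 8, 3 to 8 and 5 to 13 against both tissues at the 3 times in order, and 6 to 11 between 5 to 7 h and 40 to 50 min. Genes that kept their call under all of these settings that applied to them numbered 7 of 22 in the stigma (CPK2, CPK12, CPK21, CPK22, CPK29, CIPK6 and CIPK30) and 4 of 11 in the ovary (CPK2, CPK21, CPK29 and CIPK30). The only probe set of CPK12 carries a suffix for possible cross-hybridisation, so leaving out such probe sets could not be applied to CPK12. Deviations of same-numbered arrays correlated between -0.26 and 0.43 over 57 pairs. All 3 correlations were over 0.1 for 1 of 15 pairs of groups with 3 shared numbers (unpollinated ovary and 40 to 50 min pistil, 0.13 to 0.17). Both were for 3 of 6 pairs with 2 shared numbers, the highest for 5-min stigma and unpollinated ovary (0.40 and 0.42). These 6 pairs all hold the 5-min stigma, whose 2 arrays deviate from their mean by equal and opposite amounts. The 2 correlations of such a pair are therefore not separate observations. The numbers were therefore not taken to pair the arrays of the series as a whole, and the replicate block left the 6 calls at 40 to 50 min. The replicate block left 22 and 11 calls at 5 min, and ended the call of CBL4 between 5-min stigma and 5-min ovary and no other call.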
